A study of Mus musculus with 6 samples.

Results

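The comparison described here sets mouse alveolar macrophages exposed to lipopolysaccharide (LPS) together with vitamin D3 (VD3) against control macrophages. Its libraries were chosen by their labelled agent, not by any measured value, and are 4 of the series' 6 RNA-seq libraries, 2 per group. The cells of every group were wild-type (WT) macrophages collected fresh by lung lavage. The combination group received 100 ng/mL LPS and 50 nM VD3 for 4 h in complete culture medium, the 2 LPS libraries received the same LPS without VD3, and the control libraries carry the agent label Control. The sources used here do not give the time and medium of the control cells, or the age, sex and strain of the mice. The cells were outside the lung, at 1 dose and 1 time, and cells given VD3 without LPS were not analysed here. The parts of LPS and of VD3 in a difference from control therefore cannot be told apart in that contrast alone, so the LPS levels are given beside the main genes, and the combination was also tested against LPS in the same model. The labels do not say that the libraries came from separate mice or cultures, so p-values measure the spread between libraries, which may be technical.

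Alveolar macrophages live in the air spaces, clear surfactant and inhaled particles, and keep their identity through granulocyte-macrophage colony-stimulating factor, TGF-beta and the lipid-sensing receptor PPAR-gamma. LPS, a wall component of Gram-negative bacteria, is sensed by Toll-like receptor 4 (TLR4) with its partners CD14 and MD-2. Signalling through MyD88 activates NF-kappa B and the cytokine genes, and signalling through TRIF activates interferon-beta, which then acts back on the cell to raise interferon-stimulated genes. The active form of vitamin D binds the vitamin D receptor (VDR), a nuclear receptor that pairs with RXR on DNA. Its best known target is Cyp24a1, the enzyme that breaks down active vitamin D.

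Letters that the factors of these pathways are known to bind were searched for in the RefSeq promoter windows (GRCm38.p6) of the 24 genes with the largest changes against control. The windows used were the 250 bases before the start, both strands were read, and 10 of the 12 raised and 10 of the 12 lowered genes had an entry. A gene was counted if any of its windows held a match. The kappa B consensus was present in 4 of the 10 raised genes (Cxcl10, Il6, Oasl1 and Cxcl1) and in 0 of the 10 lowered genes. It was present in 5.67% of the 27025 gene symbols searched, and in 5.0% of their 32851 single promoters. The interferon response letters GAAANNGAAA were present in 4 of the 10 raised genes (Cxcl10, Ifit3, Ifit1 and Rsad2) and in 0 of the 10 lowered genes. They were present in 3.46% of all gene symbols and in 2.98% of all promoters. The consensus of the vitamin D response element with 2 direct repeats spaced by 3 bases was in none of these 20 genes. It was in 0.0444% of all gene symbols and in 0.0396% of all promoters. At that rate a match among 20 genes was unlikely from the start, so its absence says nothing about vitamin D action. Cyp24a1 and Hbegf had no entry and were not searched. The windows of 4 raised genes are shown as examples of each motif, 5′ to 3′ on the gene's strand, with matching letters in capitals. They lie at chr5:92348890-92349139 (Cxcl10, minus strand), chr5:30012864-30013113 (Il6, plus strand), chr19:34640639-34640888 (Ifit1, plus strand) and chr5:90890995-90891244 (Cxcl1, plus strand). In Cxcl10 the left capitals are the interferon letters and the right capitals are 2 overlapping kappa B matches. Il6 and Cxcl1 each hold 1 kappa B match, and Ifit1 holds the interferon letters in 2 places, read on the other strand. A match describes these letters and does not show that a factor was bound.
Cxcl10: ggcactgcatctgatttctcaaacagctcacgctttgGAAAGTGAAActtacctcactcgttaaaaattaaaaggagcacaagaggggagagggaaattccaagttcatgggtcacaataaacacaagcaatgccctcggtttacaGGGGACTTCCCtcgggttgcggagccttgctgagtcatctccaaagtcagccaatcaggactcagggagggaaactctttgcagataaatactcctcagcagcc
Il6: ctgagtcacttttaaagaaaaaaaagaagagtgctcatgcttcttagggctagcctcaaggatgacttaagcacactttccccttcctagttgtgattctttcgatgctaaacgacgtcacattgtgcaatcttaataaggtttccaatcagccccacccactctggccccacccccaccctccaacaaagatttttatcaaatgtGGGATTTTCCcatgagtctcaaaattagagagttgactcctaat
Ifit1: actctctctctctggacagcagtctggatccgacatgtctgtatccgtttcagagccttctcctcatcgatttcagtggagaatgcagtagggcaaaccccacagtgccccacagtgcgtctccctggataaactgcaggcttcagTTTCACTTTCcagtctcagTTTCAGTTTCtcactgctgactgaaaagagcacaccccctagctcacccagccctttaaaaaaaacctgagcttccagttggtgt
Cxcl1: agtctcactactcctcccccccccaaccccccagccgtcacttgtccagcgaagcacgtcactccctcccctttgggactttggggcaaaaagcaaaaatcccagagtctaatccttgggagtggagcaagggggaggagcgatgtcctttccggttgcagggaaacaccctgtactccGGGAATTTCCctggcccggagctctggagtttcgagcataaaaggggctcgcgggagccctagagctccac

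The 4 libraries held between 5022314 and 5465223 counts, and the LPS libraries 5148787 and 5298428. Of 23413 genes in the table, 10724 had enough counts to be tested. Libraries of each group differed beyond counting noise: the chi-square per degree of freedom was 2.45 for the control pair, 9.64 for the LPS + VD3 pair and 25.3 for the LPS pair. The library title of LPS replicate 1 carries a number outside the range of the other titles. The labels do not say what these numbers mark. Levels are library-scaled counts (CPM) after TMM, a normalization that centres most genes on no change, and differences are log2 fold changes ± the standard error of the edgeR fit. Genes were called at a Benjamini-Hochberg adjusted p under 0.05 in edgeR's quasi-likelihood test over all tested genes. Defining markers of the labelled cell type were present in control: the receptor Siglec5 (Siglec-F) stood at 213 and 207 CPM, the scavenger receptor Marco at 1433 and 1440 CPM, and the carbonic anhydrase Car4 at 930 and 929 CPM.

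The combination changed 3749 of 10724 tested genes against control, 35% of them, with 1895 higher (17.7%) and 1854 lower (17.3%). Of these, 1045 were at least 2-fold higher (9.74%) and 1172 at least 2-fold lower (10.9%). The shares of 17.7% higher and 17.3% lower are the background for each list count against control below. For list counts against LPS the background is 2.25% higher and 1.59% lower. The far tail was one-sided: 109 called genes had a log2 fold change of at least 5, and 11 had one of -5 or less. The median over all tested genes was 0.01. Scaling by library size alone moved that median by -0.327 and turned the called genes into 1171 higher and 3356 lower, so small changes below are relative to the TMM centre. Against LPS the combination differed in 411 genes (3.83%), 241 higher (2.25%) and 170 lower (1.59%). That second count rests on few libraries: it was 94 without LPS + VD3 replicate 1, 55 without LPS + VD3 replicate 2 and 3670 without LPS replicate 2.

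**Figure D1:**
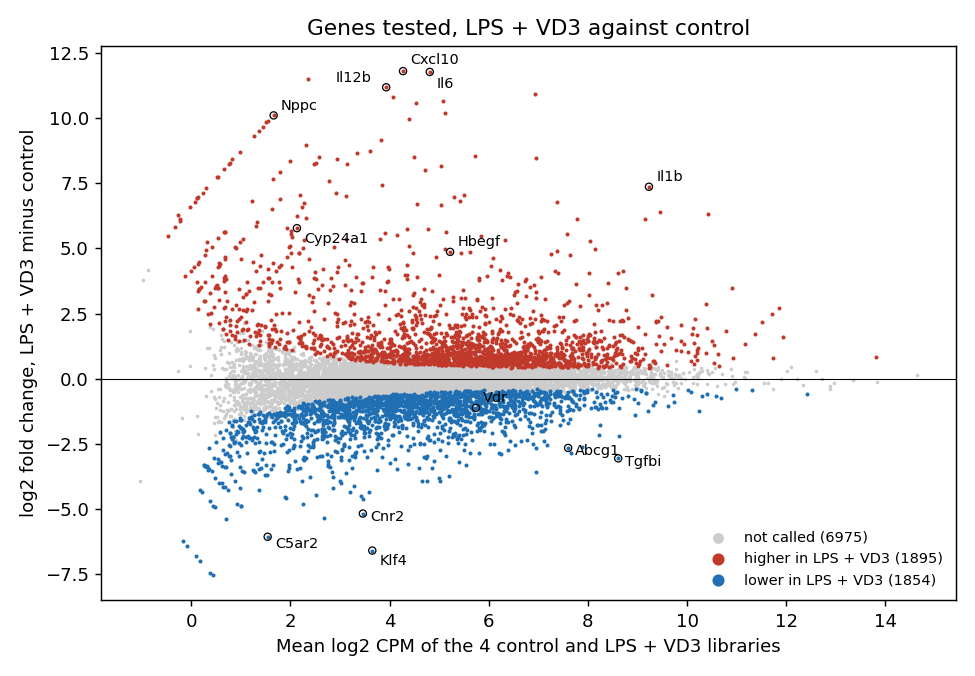
Log2 fold change of LPS + VD3 minus control (vertical axis) against the mean log2 CPM of the 4 libraries (horizontal axis) for each of the 10724 tested genes; red points are the 1895 called higher and blue points the 1854 called lower. Circled genes are described in the text, and the raised genes reach further from 0 than the lowered ones.

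The genes raised furthest were cytokines, chemokines and interferon-stimulated genes that were close to silent in control. Il6, which encodes the fever- and acute-phase-inducing cytokine interleukin-6, stood at 0.685 and 0 CPM in control, 1164 and 1328 CPM in LPS + VD3 and 1169 and 1199 CPM in LPS. Control and combination were far apart with no overlap, and the combination lay at the level of LPS (log2 fold change against control 11.78 ± 0.40, adjusted p = 2.17e-08; against LPS 0.07 ± 0.21, adjusted p = 0.857). Cxcl10, a chemokine that draws T cells, had 2 counts in the control libraries and 6666 in the LPS + VD3 libraries, a ratio of 4107 with a 95% counting interval of 1137 to 33920. Il12b, the shared subunit of interleukin-12 and interleukin-23, went from 0.343 and 0 CPM in control to 432 and 452 CPM, and stood at 180 and 174 CPM in LPS. Il12b was thus highest in the combination, 1.32 ± 0.19 above LPS on the log2 scale (adjusted p = 0.00354), a call lost without either LPS + VD3 library (adjusted p = 0.0613 and 0.0947). Irg1 (Acod1), which makes the antibacterial metabolite itaconate, rose from 2.57 and 2.56 CPM to 4694 and 5503 CPM, beside 3269 and 2975 CPM in LPS (10.94 ± 0.24, adjusted p = 6.33e-09). Ptgs2, the inducible cyclooxygenase of prostaglandin synthesis, rose by 10.19 ± 0.33, and Tnfsf15, a TNF-family ligand, by 10.65 ± 0.28. Slco3a1, an organic anion transporter, had 1 count in control and a ratio of 653 (95% counting interval 117 to 25844).

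Of 20 tested members of the list of inflammatory cytokines and mediators, 18 rose, the other 2 were not called, and the median log2 fold change was 5.79, or 4.57 with the genes at 0 counts in control set to their lower bound. The list took 0.11% and 0.104% of all counts in control and 2.93% and 3.21% in the combination. Tnf, the early inflammatory cytokine, stood at 27.4 and 24.8 CPM in control, 1696 and 1940 CPM in LPS + VD3 and 2959 and 2223 CPM in LPS. The 2 control values lay far below, and the combination was not called different from LPS (6.12 ± 0.22 against control; -0.51 ± 0.17 against LPS, adjusted p = 0.131). Il1b, which encodes interleukin-1 beta, rose from 49.9 and 43 CPM to 8082 and 7289 CPM, beside 12300 and 10212 CPM in LPS (7.37 ± 0.22, adjusted p = 1.08e-08). Il23a, the other subunit of interleukin-23, had 0 counts in control, so that its rise was at least 77.2-fold. Nos2, the inducible nitric oxide synthase, also had 0 counts in control but stayed low in the combination, at 2.09 and 3.58 CPM (at least 11.5-fold higher). Ifnb1 was at 0 counts in control and 1.26 and 0.796 CPM in the combination, at least 4.11-fold higher, a call that was lost without any 1 of the 4 libraries compared (adjusted p 0.0566 to 0.0883). Il10, which encodes an anti-inflammatory cytokine, had 2 counts over the 6 libraries and was not tested.

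Part of the cytokine list was higher in the combination than in either other group. Osm, which encodes the interleukin-6-family cytokine oncostatin M, stood at 16.8 and 18 CPM in control, 62.6 and 52.2 CPM in LPS and 364 and 271 CPM in LPS + VD3. The 3 groups did not overlap, and the combination was higher than control by 4.19 ± 0.21 and than LPS by 2.47 ± 0.19 (adjusted p = 3.54e-07 and 0.000106). Lif, its relative, rose by 2.44 ± 0.18 against control and 1.62 ± 0.18 against LPS. Csf1, the macrophage growth factor, rose by 3.05 ± 0.24 and 1.71 ± 0.22, and Il33, an alarm cytokine, by 4.66 ± 0.50 and 2.31 ± 0.39. Irg1 and Il12b completed the 6 of 20 members that were higher than LPS, with Irg1 at 0.71 ± 0.15 (adjusted p = 0.0305), with no overlap of its libraries. The Csf1 call against LPS was lost without LPS + VD3 replicate 2. The Il33 call was lost without either LPS + VD3 library and with no filter (adjusted p = 0.0594). The Irg1 call was lost without either of these libraries and without either control library. It was also lost with no filter (0.0708) and with the LPS and LPS + VD3 libraries alone (0.122).

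Chemokines followed a similar course, with 14 of 17 tested members higher than control, 1 lower, and a median of 5.63. Cxcl2, a neutrophil attractant, stood at 6.17 and 6.57 CPM in control, 2220 and 2302 CPM in LPS + VD3 and 3702 and 3154 CPM in LPS, and rose by 8.47 ± 0.21 against control. Cxcl3, its neighbour in sequence and function, rose by 6.40 ± 0.21, Ccl3 by 6.14 ± 0.24 and Ccl5 by 8.51 ± 0.39. Cxcl1, another neutrophil attractant, stood at 0.343 and 0.481 CPM in control, 242 and 265 CPM in LPS + VD3 and 518 and 507 CPM in LPS. It was far above control (9.18 ± 0.26) and below LPS (-1.02 ± 0.14, adjusted p = 0.00367), a call lost without either LPS + VD3 library (adjusted p = 0.0764 and 0.0675). The monocyte attractants went the other way: Ccl2 stood at 6.34 and 3.53 CPM in control, 61.2 and 54.2 CPM in LPS and 236 and 252 CPM in LPS + VD3. Ccl7 stood at 0.343 and 0.321 CPM, 6.57 and 6.88 CPM, and 26.8 and 26.5 CPM in the same order. Both rose against control (5.63 ± 0.25 and 6.23 ± 0.35) and were higher than in LPS (2.08 ± 0.20, adjusted p = 0.00043, and 1.98 ± 0.22, adjusted p = 0.00101), calls kept in each alternative that was run. Cx3cl1, the membrane-bound chemokine fractalkine, was the member that fell (-2.81 ± 0.29).

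Interferon-stimulated genes rose nearly as a block: 39 of 41 tested members rose, the other 2 were not called, and the median was 3.11. Their share of all counts went from 0.101% and 0.0997% in control to 0.786% and 0.817% in LPS + VD3, beside 0.967% and 0.886% in LPS. Ifit1, which blocks viral RNA, stood at 0.514 and 0.321 CPM in control, 671 and 690 CPM in LPS + VD3 and 842 and 762 CPM in LPS (10.60 ± 0.26 against control, adjusted p = 6.33e-09). Ifit3 rose at least 276-fold from 0 counts in control, but a near-identical copy, Ifit3b, makes its count uncertain. Rsad2, the antiviral enzyme viperin, rose by 9.97 ± 0.26, Gbp5, a guanylate-binding protein, by 8.18 ± 0.22, and Ifih1, the RNA sensor MDA5, by 5.55 ± 0.20. Oasl1 had 3 counts in control and a ratio of 1960 (95% counting interval 670 to 9506). Against LPS, 6 members were lower: Ifit2, Ifit3, Mx1, Irf1, Irf7 and Igtp. Irf7, the interferon-amplifying factor, shows the pattern at 1.2 and 0.962 CPM in control, 37.5 and 35.4 CPM in LPS + VD3 and 106 and 55.6 CPM in LPS. The 6 calls against LPS were lost without either LPS + VD3 library, and those of Irf7 and Ifit3 also without either control library. With no filter Irf7, Ifit3, Ifit2 and Mx1 lost the call (adjusted p = 0.172, 0.137, 0.0634 and 0.0512). With the LPS and LPS + VD3 libraries alone Irf7 and Ifit3 lost it (0.0534 and 0.064), and Irf7 also with limma-voom (0.0623). The Irf7 call was lost without LPS replicate 1 as well, where its difference from LPS was -0.62 in place of -1.15. Irf1 was also the smallest called rise of the list against control (0.82 ± 0.21), lost without any 1 of the 4 libraries compared (adjusted p 0.0564 to 0.125).

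Among the receptors and adaptors of TLR4 signalling, 18 of 26 tested members rose and 1 fell, with a median of 0.92. With library-size scaling 13 rose and 3 fell, and fewer than 18 rose without any 1 of the 4 libraries compared. The co-receptor Cd14 stood at 21.6 and 19.2 CPM in control, 395 and 293 CPM in LPS + VD3 and 534 and 352 CPM in LPS, a rise of 4.07 ± 0.25 against control. Tlr2, the receptor for bacterial lipoproteins, rose by 1.99 ± 0.16. The subunits of NF-kappa B rose together, with Nfkb1 at 2.92 ± 0.15, Nfkb2 at 3.33 ± 0.20 and Rel at 2.48 ± 0.21. Tlr4 itself was the member that fell with TMM scaling, from 164 and 192 CPM to 101 and 107 CPM (-0.78 ± 0.25, adjusted p = 0.0377). That call was lost without any 1 of the 4 libraries compared (adjusted p 0.0716 to 0.191). The brakes on this pathway were raised as well: of 24 tested feedback regulators 20 rose and 1 fell, with a median of 2.09. Tnfaip3, the ubiquitin-editing enzyme A20, rose from 34.3 and 26.3 CPM to 934 and 900 CPM (4.92 ± 0.19). Nfkbiz rose by 5.73 ± 0.25, the RNase Zc3h12a by 3.92 ± 0.19 and Socs3, which limits interleukin-6 signalling, by 4.63 ± 0.25. Irak3, an inhibitory kinase counted in the receptor list, rose by 3.35 ± 0.21. Dusp5, a MAP kinase phosphatase, fell (-3.05 ± 0.40), with 22.1% of its exon length overlapping a gene on the other strand.

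Socs1, an inhibitor of interferon signalling, stood at 1.54 and 0.641 CPM in control, 4.19 and 1.99 CPM in LPS + VD3 and 39.2 and 12.7 CPM in LPS. The combination was not called against control (1.49 ± 0.89, adjusted p = 0.225, but 0.02 with the replicate block and 0.0396 and 0.0299 without LPS replicate 1 or 2) and was lower than LPS by 3.07 ± 0.57 (adjusted p = 0.0156). The 2 LPS libraries lay far apart from each other, and the call against LPS was lost without either LPS + VD3 library. It was also lost with limma-voom (adjusted p = 0.0533) and with no filter (0.111). Cish and Nfkbie were the other regulators below LPS, and both were above control (0.94 ± 0.22 and 1.77 ± 0.24). The Cish call against control was lost without any 1 of the 4 libraries compared (adjusted p 0.052 to 0.0674), and the calls of both against LPS were lost without either LPS + VD3 library (adjusted p up to 0.294).

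**Figure D2:**
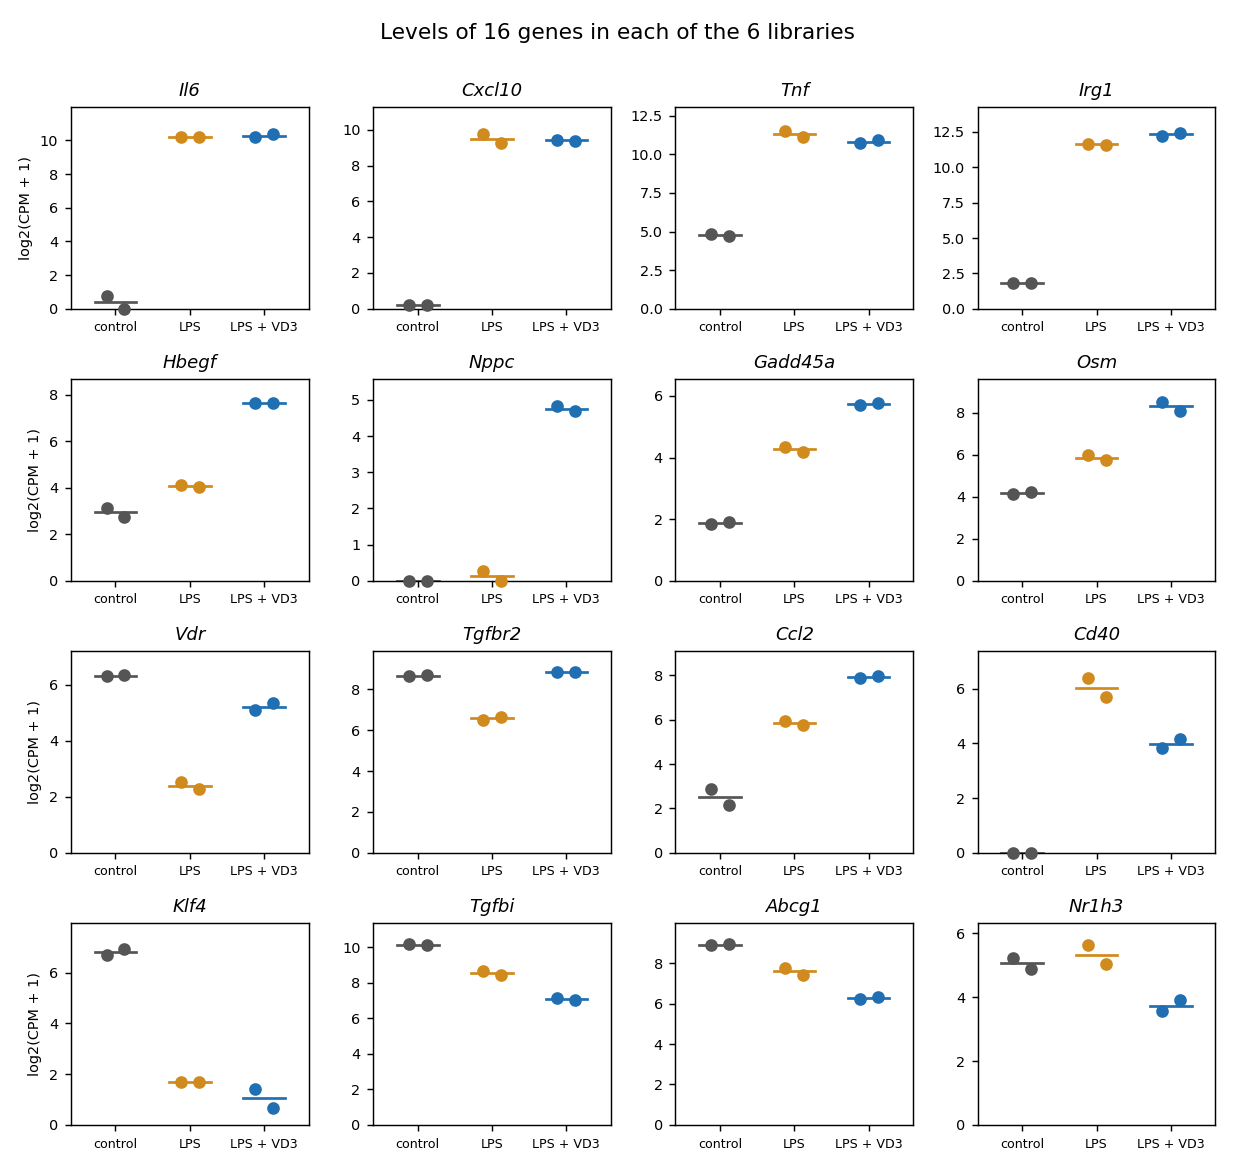
Level of 16 genes in each of the 6 libraries, on a log2(CPM + 1) axis; points are libraries, horizontal lines are means of the 2 libraries of a group. Il6, Cxcl10 and Tnf sat near the LPS level, Irg1, Hbegf, Nppc, Gadd45a, Osm and Ccl2 were highest in LPS + VD3, and Tgfbi and Abcg1 were lowest there.

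In the vitamin D receptor pathway 5 of 19 tested members rose and 7 fell against control, with a median of -0.13. Cyp24a1 had 5 counts in the control libraries, 0 in the LPS libraries and 236 in the LPS + VD3 libraries. Its level was 0.343 and 0.481 CPM in control and 23.4 and 24.7 CPM in the combination, 5.78 ± 0.37 higher (adjusted p = 4.14e-06) and at least 78.8-fold higher than LPS. The gene lies on the minus strand of chromosome 2, 170482708 to 170497145 (mm10, GENCODE annotation, as for the positions below). Vdr, the receptor gene (chromosome 15, 97854425 to 97910630), stood at 77.3 and 80 CPM in control, 4.72 and 3.84 CPM in LPS and 32.9 and 39.2 CPM in LPS + VD3. The combination thus lay between the other groups without overlap, below control by 1.12 ± 0.17 on the log2 scale (adjusted p = 0.0007) and above LPS by 3.07 ± 0.23 (adjusted p = 0.000102). Rxra, the partner receptor, fell against control (-1.68 ± 0.17) and was not called against LPS (adjusted p = 0.0994). Gadd45a, a stress-response gene known as a vitamin D target, stood at 2.57 and 2.72 CPM, 19.5 and 17 CPM, and 51.7 and 53.1 CPM in control, LPS and LPS + VD3. It rose by 4.29 ± 0.23 against control and 1.52 ± 0.19 against LPS (adjusted p = 0.0525 without LPS + VD3 replicate 2), although 19.1% of its exon length overlaps a gene on the other strand. Nrip1, a nuclear receptor co-repressor, stood at 42.5 and 47.3 CPM, 26.5 and 29.1 CPM, and 183 and 228 CPM in that order (2.20 ± 0.17 against control). Cyp27b1, the enzyme that makes active vitamin D, had 3 counts over the 6 libraries and was not tested.

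Growth and repair factors rose in the combination: 11 of 15 tested members rose against control, 2 fell, the median was 2.93, and 5 were higher than LPS. Hbegf, heparin-binding EGF-like growth factor, stood at 7.88 and 5.61 CPM in control, 16.2 and 15.4 CPM in LPS and 198 and 197 CPM in LPS + VD3. The combination was above both groups without overlap, by 4.87 ± 0.21 (adjusted p = 1.07e-07) and 3.64 ± 0.19 (adjusted p = 1.87e-05). Pdgfb, a platelet-derived growth factor chain, stood at 0.857 and 0.962 CPM, 23.6 and 20 CPM, and 170 and 151 CPM in the same order (7.42 ± 0.26 against control, 2.87 ± 0.18 against LPS). Nppc, which encodes C-type natriuretic peptide, had 0 counts in control, 1 in LPS and 256 in LPS + VD3, at least 105-fold above control. Its ratio to LPS was 256 with a 95% counting interval of 45.6 to 10167. Gdf15, a stress-induced TGF-beta-family cytokine, rose by 2.93 ± 0.28 against control and 2.67 ± 0.29 against LPS, and Pdgfa by 1.77 ± 0.32 and 2.80 ± 0.39 (adjusted p against LPS 0.0833 without LPS + VD3 replicate 2). Of the exon length of Pdgfa 26.1% overlaps a gene on the other strand. Inhba, the activin A chain, rose by 5.29 ± 0.18 and Ereg, an EGF-receptor ligand, by 7.06 ± 0.26, neither called against LPS. Areg, another EGF-receptor ligand, rose against control (4.30 ± 0.44) but was below LPS (-1.33 ± 0.27, adjusted p up to 0.29 without an LPS + VD3 library). Plau, the urokinase protease, went from 101 and 96.6 CPM to 8.79 and 4.18 CPM (-3.93 ± 0.27), beside 17.4 and 15.8 CPM in LPS. It was also below LPS (-1.36 ± 0.30, adjusted p = 0.0341), a call lost without LPS + VD3 replicate 2 (0.275), without either control library (0.0592 and 0.0581), with no filter (0.127) and with the 4 libraries alone (0.0666).

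Among genes called against both groups with a mean log2 CPM of at least 2 over the control and LPS + VD3 libraries, the 8 raised genes furthest from LPS were highest in the combination. Besides Cyp24a1 and Hbegf, these were Hey1, Srgap3, Sall2, Art2a-ps, Plcl1 and Relt. Nppc and Gata6, below that level, lay 7.70 ± 0.55 and 4.69 ± 0.46 above LPS. Hey1, a transcriptional repressor of the Notch pathway, stood at 1.37 and 1.76 CPM in control, 1.23 and 0.809 CPM in LPS and 20.1 and 15.1 CPM in LPS + VD3 (3.46 ± 0.33 against control, 4.08 ± 0.37 against LPS). Sall2, a zinc-finger factor, stood at 2.06 and 2.4 CPM, 1.64 and 2.43 CPM, and 27.2 and 28.1 CPM. Control and LPS overlapped in Sall2, and the combination lay far above both (3.61 ± 0.27 and 3.75 ± 0.29). Srgap3, a regulator of Rac signalling, and Relt, a TNF-receptor-family member, were higher in the combination than in either other group, and their levels in LPS lay below control, a difference not tested here. Relt stood at 25.7 and 26.6 CPM, 7.18 and 4.05 CPM, and 56.7 and 54.3 CPM. Plcl1 rose by 3.60 ± 0.38 against control, and its call against LPS had an adjusted p of 0.0525 without LPS + VD3 replicate 2. Art2a-ps rose by 5.44 ± 0.56, but its near-identical relatives make that count uncertain, and without LPS + VD3 replicate 2 its adjusted p against LPS was 0.0741.

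**Figure D3:**
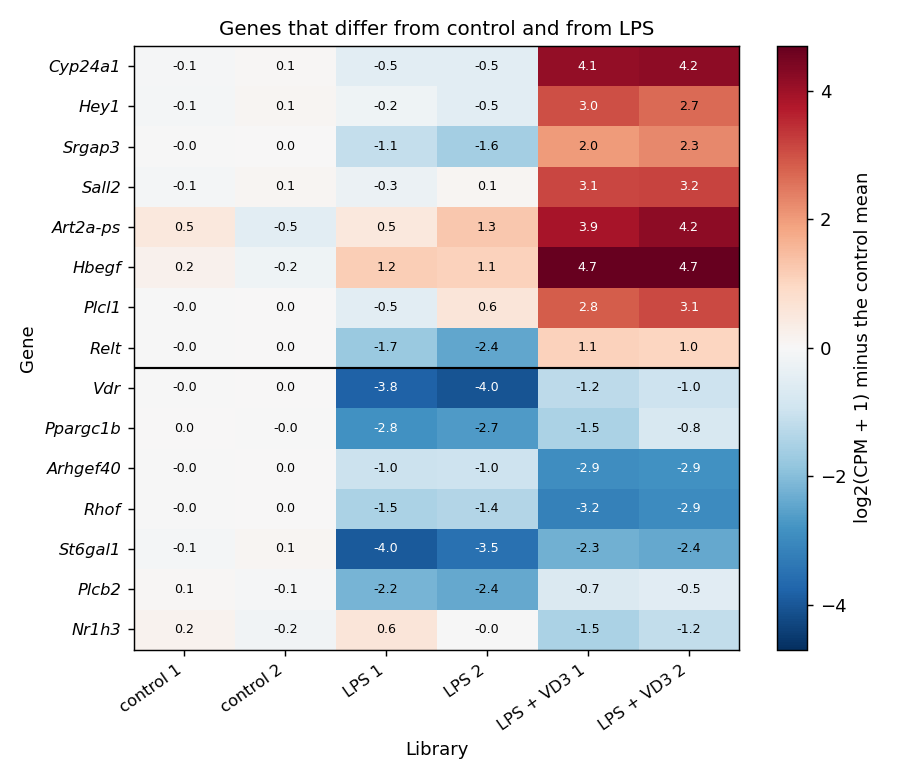
Log2(CPM + 1) minus the control mean (colour and printed value) for 15 genes called against control and against LPS, in each of the 6 libraries (columns); the line separates genes raised from genes lowered against control. Vdr, Ppargc1b, St6gal1 and Plcb2 lay between control and LPS in LPS + VD3, whereas Arhgef40, Rhof and Nr1h3 were lowest there.

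On the lowered side, the gene furthest from control was Klf4, a zinc-finger transcription factor of monocytes and macrophages (chromosome 4, 55527143 to 55532466). It stood at 103 and 120 CPM in control, 1.67 and 0.597 CPM in LPS + VD3 and 2.26 and 2.23 CPM in LPS. The combination was below control by 6.60 ± 0.31 on the log2 scale (adjusted p = 2.15e-07) and not called against LPS (adjusted p = 0.266). Nt5e, the ecto-enzyme CD73 that makes adenosine, went from 46.1 and 55.9 CPM to 2.51 and 1.59 CPM (-4.63 ± 0.30). Cnr2, the cannabinoid receptor of immune cells, went from 60.8 and 58.8 CPM to 1.47 and 1.79 CPM (-5.18 ± 0.26). Rgs2, which limits G-protein signalling, fell by 4.52 ± 0.44, Bmf, a cell-death activator, by 4.81 ± 0.37, and Gadd45g, a stress gene, by 4.46 ± 0.34. Plekha6 (-5.36 ± 0.36), Hspa12a (-4.35 ± 0.36), Rufy4 (-4.35 ± 0.28) and Krt19, a keratin of alveolar macrophages and epithelium (-4.02 ± 0.30), belong to the same group. Daglb, a lipase of endocannabinoid synthesis, fell by 4.20 ± 0.42, with 24.1% of its exon length shared with Rac1 on the other strand. Of these 12 genes Id1, an inhibitor of DNA-binding factors, was the one called below LPS too: it stood at 38 and 37.3 CPM in control, 8.62 and 5.26 CPM in LPS and 2.3 and 1.99 CPM in LPS + VD3. That second call (-1.68 ± 0.36, adjusted p = 0.0329) was lost without either LPS + VD3 library, either control library or LPS replicate 1 (-1.30 without the last). It was also lost with limma-voom (adjusted p = 0.068), with no filter (0.105) and with the LPS and LPS + VD3 libraries alone (0.0671).

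Some genes were lower in the combination than in both other groups. Tgfbi, a TGF-beta-induced matrix protein, stood at 1150 and 1096 CPM in control, 406 and 350 CPM in LPS and 138 and 132 CPM in LPS + VD3. Its 3 groups did not overlap, and the combination was below control by 3.06 ± 0.16 and below LPS by 1.49 ± 0.15 (adjusted p = 3.9e-07 and 0.00064). Arhgef40 and Rhof, regulators of the cytoskeleton, fell by 3.40 ± 0.28 and 3.92 ± 0.34 against control. Rhof stood at 15.6 and 16 CPM, 4.93 and 5.46 CPM, and 0.837 and 1.19 CPM in the same order. The calls of both against LPS were lost without either LPS + VD3 library (adjusted p 0.0536 to 0.12). Bcl2l1, which encodes the survival protein Bcl-xL, fell by 2.14 ± 0.25 against control and stood at 12.8 and 15.3 CPM in LPS + VD3 beside 51.3 and 31.6 CPM in LPS (adjusted p = 0.00878, and up to 0.133 without an LPS + VD3 library).

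In other genes the combination lay above LPS, either near control or between control and LPS. Tgfbr2, the type II TGF-beta receptor on which alveolar macrophages depend (chromosome 9, 116084293 to 116175360), stood at 402 and 417 CPM in control, 90.5 and 99.3 CPM in LPS and 465 and 457 CPM in LPS + VD3. It was not called against control (0.17 ± 0.14, adjusted p = 0.37) and was 2.28 ± 0.15 above LPS (adjusted p = 3.95e-05), a call kept in each alternative that was run. Its partner Tgfbr1 did not share this: it stood at 793 and 893 CPM, 119 and 214 CPM, and 191 and 175 CPM (-2.20 ± 0.24 against control). Myc stood at 48.8 and 52.6 CPM, 23.8 and 19.2 CPM, and 47.7 and 62.7 CPM in control, LPS and LPS + VD3 (0.12 ± 0.19 against control; 1.36 ± 0.21 against LPS, lost without LPS + VD3 replicate 2 at adjusted p = 0.117). Plcb2, a phospholipase of chemokine-receptor signalling, stood at 249 and 225 CPM, 50.7 and 44.3 CPM, and 147 and 162 CPM. Its fall against control (-0.62 ± 0.15) was lost without either control library or LPS + VD3 replicate 1 (adjusted p 0.0678 to 0.153). St6gal1, a sialyltransferase, and Ppargc1b, a mitochondrial coactivator, also lay between the groups, with falls of 2.59 ± 0.26 and 1.23 ± 0.31 against control. Their calls above LPS were lost with limma-voom (adjusted p = 0.0601 and 0.0502) and with no filter (0.0946 and 0.085). Both were also lost without either LPS + VD3 library and without LPS replicate 1. St6gal1 lost it too with the LPS and LPS + VD3 libraries alone (0.0694) and without either control library. The Ppargc1b fall was lost with DESeq2 (0.06) and without either control library or LPS + VD3 replicate 1.

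Genes of alveolar macrophage identity shifted downward: of 34 tested members 19 fell, 5 rose, and the median was -0.57. Without 1 library between 13 and 21 fell, and 3 rose without either control library or LPS + VD3 replicate 2. In bulk RNA fewer cells of a type and less RNA per cell cannot be told apart. Siglec5 went from 213 and 207 CPM to 96.1 and 100 CPM (-1.10 ± 0.15), beside 91.7 and 83.1 CPM in LPS. Net1, a guanine nucleotide exchange factor, fell by 2.52 ± 0.16 and the keratin Krt79 by 2.05 ± 0.19. Pparg stood at 130 and 146 CPM in control and 97.4 and 112 CPM in LPS + VD3, with no overlap but no call (-0.40 ± 0.16, adjusted p = 0.0719, and under 0.05 in 5 of the alternatives). The members that rose included Marco (1.34 ± 0.15), Car4 (1.85 ± 0.19) and Olr1, a receptor for oxidized lipoproteins (1.31 ± 0.19). Olr1 and Tgfbr2 were the 2 members above LPS, and Abcg1 and F7 the 2 below. The calls of Olr1 and F7 against LPS were lost without either LPS + VD3 library and without either control library. They were also lost with no filter (adjusted p = 0.156 and 0.118) and with the LPS and LPS + VD3 libraries alone (0.0995 and 0.118). Olr1 lost it with DESeq2 size factors too (0.051).

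Transcription factors of macrophages moved in both directions, 17 of 38 tested members up (11 without LPS + VD3 replicate 2) and 11 down, with a median of 0.19. Gata6, the factor of peritoneal macrophages, had 2 counts in control, 9 and 13.1 CPM in LPS + VD3 and 0.41 and 0.405 CPM in LPS. Its ratio to control was 67.2 with a 95% counting interval of 18.2 to 562, and the call above LPS (adjusted p = 0.000286) was kept in each alternative. Irf4, a factor of alternative activation, stood at 51.2 and 56.4 CPM, 72 and 71.2 CPM, and 185 and 189 CPM in control, LPS and LPS + VD3 (1.80 ± 0.15 and 1.39 ± 0.15). Nr4a3, an orphan nuclear receptor, rose at least 89.1-fold from 0 counts in control, and was not called against LPS (adjusted p = 0.354). Klf4, Id3 (-4.54 ± 0.46) and Batf3 (-1.41 ± 0.31, adjusted p = 0.0554 without LPS + VD3 replicate 2) were among those that fell. Genes of alternative activation were split, 4 up and 4 down of 12 tested: Tgm2, a transglutaminase, rose by 2.35 ± 0.16 and stood 1.02 ± 0.16 above LPS (adjusted p up to 0.0881 without an LPS + VD3 library), whereas Arg1, arginase 1, fell by 1.06 ± 0.20.

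Lipid genes fell on the whole. In cholesterol synthesis 17 of 25 tested members fell and the other 8 were not called, with a median of -0.85, and with 10 or 11 falling without control replicate 2 or LPS + VD3 replicate 1. Dhcr7, which makes cholesterol in the last step, went from 115 and 117 CPM to 18 and 16.5 CPM (-2.74 ± 0.23), beside 29.1 and 17.6 CPM in LPS. Acat2 fell by 2.50 ± 0.20, Lss by 1.53 ± 0.22 and Sqle, squalene epoxidase, by 1.35 ± 0.15. In fatty acid synthesis and lipid export 14 of 27 tested members fell and 4 rose, with a median of -0.82. The desaturase Scd2 went from 413 and 433 CPM to 36.8 and 34.2 CPM (-3.57 ± 0.16), the elongase Elovl6 fell by 3.59 ± 0.29 and Fasn, fatty acid synthase, by 1.80 ± 0.18. Acsl1, which activates fatty acids, rose by 2.83 ± 0.15.

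Within that list 5 members were lower in the combination than in LPS: Nr1h3, the gene of a liver X receptor, Abcg1, Abca1, Mylip and Cpt1a. Scd2 and Fasn were not called against LPS (-0.03 ± 0.16, adjusted p = 0.934, and -0.36 ± 0.18, adjusted p = 0.279). Nr1h3 (chromosome 2, 91184061 to 91202834) stood at 36.5 and 28.7 CPM in control, 49 and 31.6 CPM in LPS and 10.9 and 13.9 CPM in LPS + VD3. Control and LPS overlapped, and the combination was below both (-1.39 ± 0.27, adjusted p = 0.00265; -1.69 ± 0.27, adjusted p = 0.0073). Abcg1, a cholesterol exporter (chromosome 17, 31057675 to 31117988), stood at 480 and 494 CPM, 219 and 171 CPM, and 74.5 and 79 CPM in control, LPS and LPS + VD3 (-2.66 ± 0.17 against control, -1.34 ± 0.17 against LPS). Abca1, the other cholesterol exporter, stood at 14.6 and 13.8 CPM, 143 and 172 CPM, and 54.2 and 53.1 CPM in that order. It therefore lay above control (1.92 ± 0.18) and below LPS (-1.56 ± 0.16, adjusted p = 0.000832). Mylip, which degrades the LDL receptor, was below both groups (-1.49 ± 0.27 and -1.66 ± 0.27), as was Cpt1a, the gate of mitochondrial fatty acid oxidation (-2.38 ± 0.15 and -1.02 ± 0.15). Without either LPS + VD3 library the calls against LPS were lost for Nr1h3 (adjusted p = 0.127 and 0.112), Abcg1 (0.0557 and 0.059), Mylip (0.113 and 0.133) and Cpt1a (0.0916 and 0.0733), and Abca1 kept its call.

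Cell cycle and DNA replication genes were lower in the combination, with 25 of 35 tested members down, 2 up and a median of -1.03. Library-size scaling gave 31 down and 2 up, and fewer than 25 were down without any 1 of the 4 libraries compared. Mcm7, a subunit of the replication helicase, went from 99.7 and 84.9 CPM to 22.8 and 24.7 CPM (-1.96 ± 0.18), and Mcm6 fell by 1.56 ± 0.16. The factor E2f2 went from 41.8 and 37.2 CPM to 6.28 and 3.58 CPM, and Ccnd1, cyclin D1, fell by 2.42 ± 0.29. Of the exon length of Ccnd1 23.4% overlaps a gene on the other strand. Cyclin D2 went the other way: Ccnd2 stood at 555 and 581 CPM in control, 946 and 987 CPM in LPS and 2164 and 2220 CPM in LPS + VD3 (1.95 ± 0.14 and 1.18 ± 0.14). E2f1 was the other member that rose, at 35.3 and 36.4 CPM in control and 46.9 and 154 CPM in LPS + VD3 (1.49 ± 0.42). That rise rests on 1 library, since without LPS + VD3 replicate 2 it was 0.36 (adjusted p = 0.281), and the call was lost without either control library too (adjusted p = 0.0633 and 0.0551). Ccne2 was not called against control (-0.38 ± 0.21, but called with library-size scaling at adjusted p = 0.0208) and was 1.36 ± 0.24 above LPS (adjusted p = 0.0122, and up to 0.19 without an LPS + VD3 library).

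**Figure D4:**
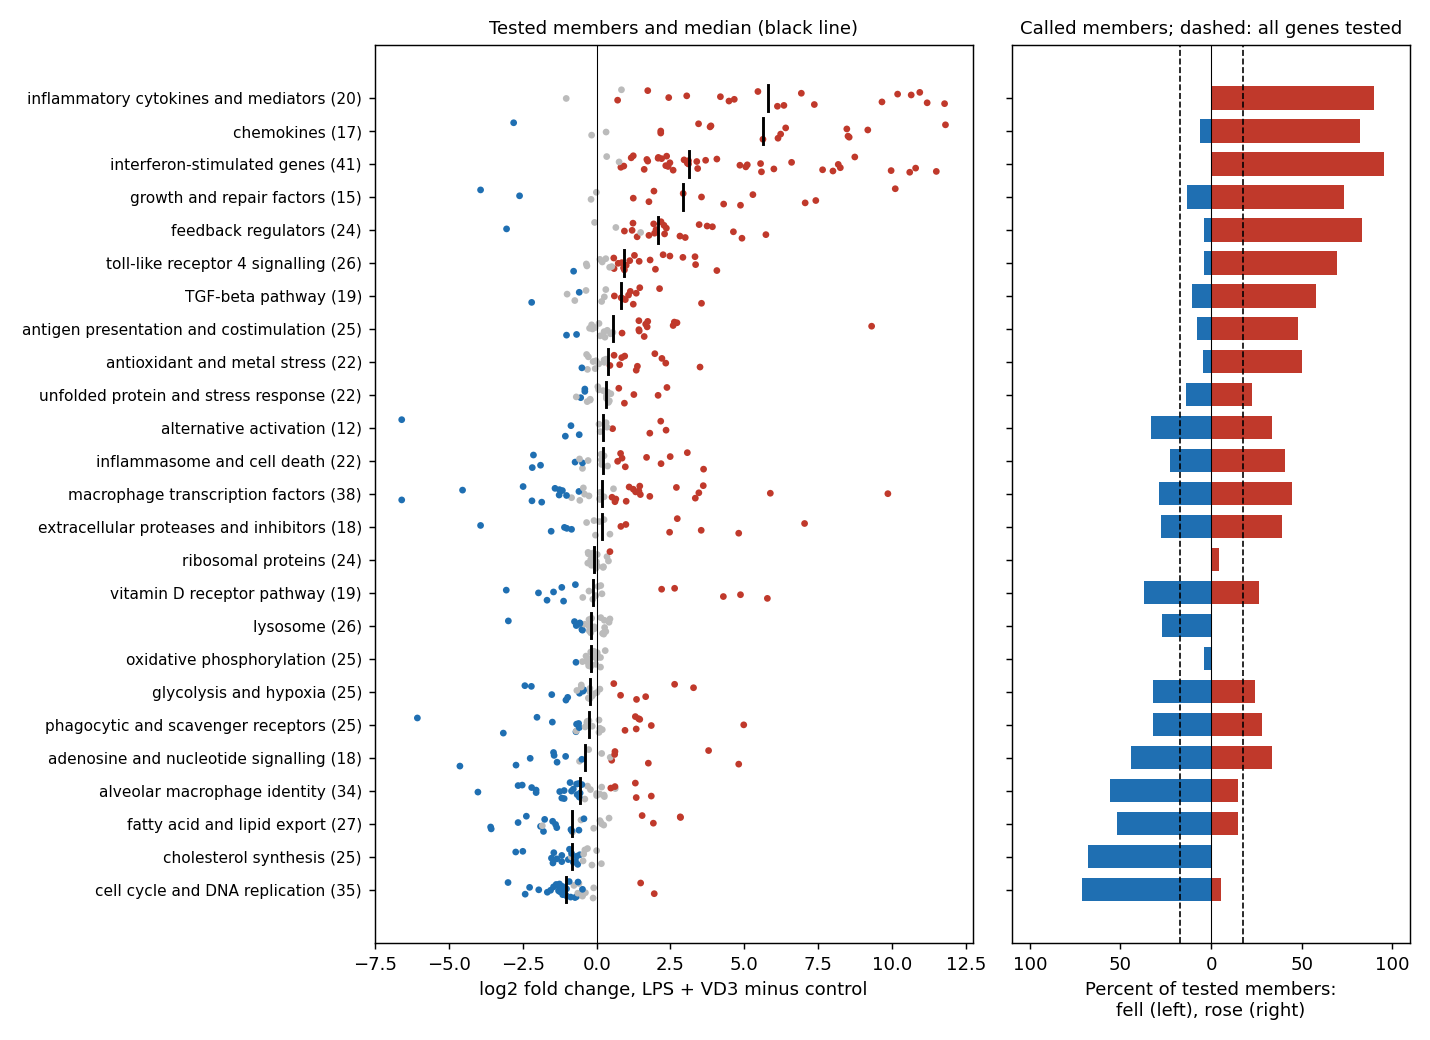
Left, log2 fold change of LPS + VD3 minus control for each tested member of 25 gene lists (points; red rose, blue fell, grey not called; black lines are medians; the number tested follows each name). Right, percent of tested members that rose or fell, with dashed lines at the 17.7% and 17.3% of all tested genes; cytokines, chemokines and interferon-stimulated genes lie at the top and cell cycle genes at the bottom.

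Antigen presentation and costimulation genes rose in 12 of 25 tested members and fell in 2 (0 or 1 without any 1 of the 4 libraries compared), with a median of 0.55. Cd40, the receptor for T cell help, had 0 counts in control, 82.3 and 50.2 CPM in LPS and 13.2 and 16.7 CPM in LPS + VD3. It was at least 60.4-fold above control and 2.14 ± 0.28 below LPS (adjusted p = 0.00364, and up to 0.104 without an LPS + VD3 library). Cd80, a costimulatory ligand, stood at 8.57 and 10.7 CPM, 20.9 and 22.3 CPM, and 56.7 and 59.9 CPM in control, LPS and LPS + VD3. It was thus highest in the combination (2.59 ± 0.20 against control; 1.43 ± 0.19 against LPS, lost without LPS + VD3 replicate 2 at adjusted p = 0.069). Cd200, an inhibitory ligand, rose by 2.63 ± 0.16, Icosl by 2.72 ± 0.18 and Cd274, PD-L1, by 1.66 ± 0.16. Tap1, the peptide transporter, rose by 1.44 ± 0.25 but was below LPS (-1.13 ± 0.24), and the immunoproteasome subunit Psmb9 was not called against control (-0.24 ± 0.36) and was below LPS (-1.52 ± 0.34). Both calls against LPS were lost with no filter (adjusted p = 0.12 and 0.135) and without either LPS + VD3 library. Psmb9 also lost it with limma-voom (0.0524) and without LPS replicate 1.

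Phagocytic and scavenger receptors were divided, 7 of 25 tested members up and 8 down (4 without either control library, 13 with library-size scaling), with a median of -0.26. The C-type lectins Clec4e (Mincle) and Clec4d rose by 4.98 ± 0.19 and 1.85 ± 0.15. The complement receptor gene C5ar2 went from 14.9 and 15.7 CPM to 0 and 0.398 CPM, where 2 counts remained, so that control was 75.1 times higher with a 95% counting interval of 20.5 to 624. Fcgr1, the high-affinity IgG receptor, fell by 3.16 ± 0.30. Adenosine and nucleotide signalling showed 6 tested members up and 8 down of 18, with 3 up without either control library or LPS + VD3 replicate 2, and 4 or 5 down without control replicate 2 or either LPS + VD3 library. The ecto-enzymes Nt5e and Entpd1 (-2.73 ± 0.27) fell, whereas the phosphodiesterase Pde4b rose by 3.79 ± 0.21. The adenosine receptor Adora2a stood at 0.685 and 0.641 CPM in control, 50.5 and 38.6 CPM in LPS and 20.3 and 18.1 CPM in LPS + VD3 (4.81 ± 0.35 against control). Adora2b rose by 1.75 ± 0.21, and both receptors were below LPS (-1.21 ± 0.21 and -1.23 ± 0.19), calls lost without LPS + VD3 replicate 2 (adjusted p = 0.188 and 0.134) and for Adora2a also without replicate 1 (0.103). P2ry13, a nucleotide receptor, was above LPS (1.70 ± 0.17), and its rise against control (0.61 ± 0.16) was lost without either control library or LPS + VD3 replicate 2 (adjusted p 0.124 to 0.156).

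In the inflammasome and cell death list 9 of 22 tested members rose and 5 fell (3 without either control library or LPS + VD3 replicate 1). Nlrp3, the inflammasome sensor, rose from 27.8 and 26.6 CPM to 347 and 324 CPM (3.62 ± 0.16), and its adaptor Pycard fell by 1.90 ± 0.28. Fas and Casp4, a death receptor and the sensor of LPS inside the cell, rose by 3.07 ± 0.18 and 2.18 ± 0.18. Bcl2l11, the death activator Bim, rose by 2.49 ± 0.17 and was 0.96 ± 0.16 above LPS (adjusted p up to 0.125 without an LPS + VD3 library). In the TGF-beta pathway 11 of 19 rose (7 without control replicate 1 or LPS + VD3 replicate 2) and 2 fell, among them Tgif1 (2.13 ± 0.16), Itgav (1.46 ± 0.19) and Acvr1b (0.97 ± 0.15) on the raised side. Of 18 tested proteases and inhibitors 7 rose and 5 fell, 66.7% called beside 35% of all tested genes. Mmp13, a collagenase, stood at 8.39 and 7.53 CPM, 92.8 and 112 CPM, and 218 and 230 CPM in control, LPS and LPS + VD3 (4.81 ± 0.20 against control). Its level above LPS (1.13 ± 0.16) was lost as a call without either LPS + VD3 library (adjusted p = 0.0557 and 0.0913). Mmp14 rose by 2.47 ± 0.19, and Serpinb2, an inhibitor of urokinase, had 3 counts in control and a ratio of 144 (95% counting interval 48.9 to 702).

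In glycolysis and hypoxia 6 of 25 tested members rose and 8 fell, the falls being 3 or 4 without either control library or LPS + VD3 replicate 2 and 14 with library-size scaling. Hif1a, the hypoxia-response factor, stood out, at 162 and 187 CPM in control, 234 and 380 CPM in LPS and 958 and 1213 CPM in LPS + VD3 (2.64 ± 0.24; 1.82 ± 0.23 above LPS, lost without LPS + VD3 replicate 2 at adjusted p = 0.0733). Pfkp and the transporter Slc2a6 rose by 1.66 ± 0.15 and 3.28 ± 0.37, and Pdk1 fell by 2.21 ± 0.21. Of 25 tested genes of oxidative phosphorylation 24 were not called and 1 fell, Ndufs3 (-0.70 ± 0.20), lost without either control library or LPS + VD3 replicate 2 (adjusted p 0.082 to 0.16), while up to 4 were called lower without an LPS library and 13 with library-size scaling. Of 24 ribosomal protein genes 1 rose (3 without either LPS library), Rps24 (0.45 ± 0.16, adjusted p = 0.0491, and up to 0.561 over the alternatives). Of 26 lysosome genes 19 were not called and 7 fell, 2 without either control library or LPS + VD3 replicate 2 and 14 with library-size scaling. The share called was 26.9% in the lysosome list, 4% in oxidative phosphorylation and 4.17% in ribosomal proteins, below the 35% of all tested genes. In glycolysis and hypoxia it was 56%. The lysosome regulator Tfeb fell by 2.99 ± 0.32 and the acid lipase Lipa by 0.75 ± 0.15. Antioxidant and metal genes rose in 11 of 22 tested (7 without control replicate 1) and fell in 1, a call lost without any 1 of the 4 libraries compared. Slc7a11, the cystine importer, rose from 531 and 604 CPM to 6213 and 6618 CPM, beside 4502 and 7303 CPM in LPS (3.50 ± 0.24), the mitochondrial superoxide dismutase Sod2 by 2.34 ± 0.14, the zinc importer Slc39a14 by 2.21 ± 0.15 and Txnrd1 by 1.38 ± 0.15. In the stress response 5 of 22 rose (10 without either LPS library) and 3 fell (0 without any 1 of the 4 libraries compared), 36.4% of the list called beside 35% of all tested genes. The chaperone gene Hsph1 stood at 73 and 75.7 CPM in control, 79.6 and 103 CPM in LPS and 386 and 390 CPM in LPS + VD3 (2.38 ± 0.17 and 2.08 ± 0.17, adjusted p = 3.58e-06 and 0.000132).

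Markers of other cell types were also counted, and their part in the results was not tested. The neutrophil genes S100a9, Mpo, Elane and Retnlg were at 0 counts in all 6 libraries, and the summed level of the list's 13 genes, scaled by library size alone as for each list here, was 75.7 and 78.6 CPM in control and 76.6 and 86.4 in LPS + VD3. Its 3 raised members of 6 tested were Lcn2, Cxcr2 and S100a8, of which Lcn2 had 2 counts in control (ratio 47.4, 95% counting interval 12.7 to 399). The Cxcr2 and S100a8 calls were lost without either control library or LPS + VD3 replicate 1, and S100a8 also without replicate 2 (adjusted p up to 0.15 and 0.212). The epithelial markers Sftpc and Lamp3 were at 0 throughout, and the list summed to 311 and 322 CPM in control and 279 and 297 in LPS + VD3. In that list Pdpn went from 36.3 and 32.5 CPM to 253 and 263 CPM (2.91 ± 0.16) and Cdh1, E-cadherin, from 222 and 238 CPM to 37.5 and 49.8 CPM (-2.40 ± 0.19). Cd3e, Cd79b, Nkg7, Gzma, Gzmb and Ncr1 of the lymphocyte list were at 0, as were Col3a1 and Tek of the stromal list, and the 4 tested stromal genes were not called. The lymphocyte list summed to 77.5 and 73.1 CPM in control and 48.3 and 52.5 in LPS + VD3, with Cd2 lower (-1.31 ± 0.21), and the stromal list to 62.5 and 63.2 against 41.7 and 37.7. The eosinophil list, with Epx, Prg2, Prg3 and Ccr3 at 0, summed to at most 2.93 CPM in any library. Hba-a1, Hba-a2 and Hbb-b1 of the erythroid list were at 0, and the list as a whole reached at most 0.199 CPM.

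The monocyte list was the marker list that moved most, from 825 and 808 CPM in control to 2400 and 2850 in LPS + VD3, beside 2090 and 1820 in LPS. Of its 4 tested genes 3 rose and 1 fell, while Plac8 was at 0 counts in all libraries. Vcan, versican, stood at 3.43 and 3.69 CPM in control and 181 and 204 CPM in LPS + VD3 (5.75 ± 0.25), and Fn1, fibronectin, rose from 694 and 688 CPM to 2412 and 2876 CPM (1.94 ± 0.17). Ccr2, the defining receptor of classical monocytes, went from 5.65 and 7.69 CPM to 2 counts in all, so that control was 32.9 times higher (95% counting interval 8.81 to 276). Hp rose by 1.49 ± 0.41, a call lost without any 1 of the 4 libraries compared (adjusted p 0.0526 to 0.141). In the dendritic cell list Xcr1 rose by 3.26 ± 0.41, Clec9a fell by 1.76 ± 0.29 and Batf3 fell as given above, and the list summed to 32.7 and 39.6 CPM in control and 17.5 and 17.7 in LPS + VD3. Fn1 and Vcan are also known to be made by activated macrophages.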

How the data were processed

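RNA of WT mouse alveolar macrophages was sequenced in 6 libraries of 3 groups, grouped by the labelled agent. Per the labels' protocols, the kits were Qiagen RNeasy Micro for RNA and KAPA mRNA HyperPrep for libraries. The authors deposited whole-number counts per gene and library, which were used here. TopHat2, edgeR and mm10 are named in the submitters' processing notes. How reads were counted, on which annotation and strand, is not given in the sources used here, so counts of overlapping genes and near-identical copies are uncertain. A second deposited table of log2 values was not used.

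Counts were tested with edgeR 4.0.16 (R 4.3.3): filterByExpr with a minimum count of 10 and a minimum total of 15, TMM scaling, and a quasi-likelihood fit of 3 group means over the 6 libraries, with contrasts LPS + VD3 minus control and LPS + VD3 minus LPS. Comparisons share the LPS + VD3 libraries. Benjamini-Hochberg adjustment ran over the 10724 tested genes. Where a group had 0 counts, a fold is a lower bound against 3 counts over the group. With 1 to 3 counts, the ratio has an exact 95% interval, which covers counting error only. Data were also simulated for LPS + VD3 against control (10517 genes), with 200 genes changed, equally often up and down. Each gene had the same spread, the common dispersion of 0.021. Of genes changed by 1 on the log2 scale 66.0% were recovered, and of those changed by 2, 93.9%, with 5.36% of calls false. The data held more called genes (3749) and unequal spread between pairs of libraries, so these rates may not carry over.

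Members and gene lists were chosen with earlier results of these data known. Genes named were the 12 raised and 12 lowered furthest against control with a mean log2 CPM of at least 2 and no overlap, the 8 and 8 furthest from LPS among genes called against both groups at that same level, the 4 list members with the smallest p (all where fewer were tested), and 36 genes named in advance. Some genes of this rule are not reported here. Other list members were named after their values were seen. Alternatives were DESeq2 1.42.0, limma-voom (limma 3.58.1), DESeq2 size factors, library size alone, no filter, 4 libraries, each library left out, and the replicate number as a block.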

Additional observations from a re-analysis of the deposited data

How the results depend on the processing

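Against control 1895 genes were higher and 1854 lower. Library-size scaling gave 1171 higher and 3356 lower, moving the share of higher calls from 50.5% to 25.9%, since by construction it shifts every fold change (median -0.327). Leaving out 1 library gave 1050 to 2789 higher and 1055 to 2761 lower. The counts with the other alternatives stayed within 1.5 times of these. Against LPS 241 genes were higher and 170 lower. Leaving out 1 library gave 50 to 1866 higher and 5 to 1804 lower. No filter gave 123 higher and 46 lower, DESeq2 259 lower and the 4 libraries alone 93 lower, and the cause was not tested. With the replicate number as a block, 602 were higher and 550 lower than LPS (1152 calls in place of 411), and 2247 higher and 2185 lower than control. Replicate 1 minus 2 correlated across genes at 0.0894 between control and LPS + VD3, 0.196 between LPS and LPS + VD3 and 0.172 between control and LPS. Source names tie each combination library to an LPS number, but no label says what a number marks, so the block stayed an alternative. No call named against either group changed direction in any alternative. The losses given beside single genes are not a full list. Some further calls against LPS were also lost with no filter. Genes with few counts are limited by depth.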
